A study of Saccharomyces cerevisiae with 177 samples.

Results

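The libraries described here measured newly made RNA in budding yeast whose Med6, a subunit of the Mediator complex, lacked its first helix. They were the 3 Med6_delH1 libraries and the 3 Med6_WT libraries, 6 of the 177 libraries of the series. Members were chosen by group label, and genes were compared when their mean signal over the 6 libraries reached 10. That rule kept 4554 of the 5794 genes in the files, and the other 1240 genes were not tested. Per the genotype labels, the Med6_delH1 strain had the chromosomal MED6 gene replaced by KanMX and lived on a centromeric LEU2 plasmid, pSH2009, whose med6 gene lacked the codons of residues 13 to 20. The Med6_WT strain had the same replacement and carried MED6 on the centromeric LEU2 plasmid pSH2008. Both strains were MATalpha haploids with defective ADE2, HIS3, LEU2, LYS2, MET15, TRP1 and URA3 genes, and both expressed OsTIR, the plant F-box protein used for auxin-induced degradation, from the GPD1 promoter beside a HIS3 marker. No degron was fused to any protein in them, and their labels name neither the auxin 3-indoleacetic acid (3IAA) nor DMSO. Cultures were in mid-log growth in synthetic complete medium at 30 °C, and RNA was labelled for 5 min with 4-thioU, a uridine analog that marks transcripts made during the pulse. Each group was 1 strain, the mutant protein was present throughout growth rather than depleted acutely, and the labels do not say that replicates A, B and C were separate cultures. P-values therefore measure the spread between these libraries, which may be technical.

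Mediator is a large complex that bridges DNA-bound activators and RNA polymerase II and helps the initiation machinery assemble at promoters. It has head, middle and tail modules and a separable kinase module. Med6 belongs to the head, where it lies close to the middle module and to the polymerase, and yeast cells need it to live. The comparison asks what the loss of 1 short helix of this essential subunit did to new transcription of each gene.

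The start of the MED6 reading frame is shown because it holds the deleted segment. It is the first 30 codons of the gene YHR058C (chrVIII:219795-219884, minus strand, sacCer3), within a coding exon of 888 bases for 295 residues that ran over chrVIII:218997-219884, read from the RefSeq genome R64. Capitals mark the 24 bases of codons 13 to 20 (chrVIII:219825-219848), which encode the 8 residues absent from the Med6_delH1 protein.
MED6 codons: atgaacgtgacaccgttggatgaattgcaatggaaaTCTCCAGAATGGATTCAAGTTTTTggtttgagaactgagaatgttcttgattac

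MED6 itself was transcribed in both strains. Its signal was 68.4, 60.3 and 57.4 in the Med6_delH1 libraries and 151.7, 134.4 and 117.9 in the Med6_WT libraries, a log2 change of −1.10 ± 0.16 (SE). The groups did not overlap, but the change was that of the typical gene: relative to the median gene MED6 moved by 0.02 ± 0.08 (limma, adjusted p = 0.904). A value for the whole gene cannot show a deletion of 24 bases, so it checks that the plasmid gene was expressed and not which allele was present. As a multiple of its library's median gene, MED6 stood at 2.49 in Med6_delH1 and 2.44 in Med6_WT, and at 0.51, 0.67 and 0.54 in the Med7_WT, Med21_WT and Med17_DMSO groups, whose MED6 was chromosomal. Both Med6 strains thus had more MED6 signal, relative to the median gene, than strains with the gene in its own place.

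Whole reads could be recovered from the signal, and the libraries held 6635538, 7147941 and 7695349 reads in Med6_delH1 and 8635769, 8676533 and 8593581 reads in Med6_WT. One read was worth 0.0286, 0.0227 and 0.0217 units of signal in Med6_delH1 and 0.0515, 0.0415 and 0.0439 units in Med6_WT, so the deposited values had been scaled by a different factor in each library. What set that factor is not given in the sources used here; the builds named include ASM294v2, an assembly of the fission yeast Schizosaccharomyces pombe, whose role is not given either. Signal was not divided by gene length, so levels are compared between libraries and not between genes. The mating-type genes and LEU2 matched the labels. The 5 alpha-specific genes had 33.1 to 586 units of signal in Med6_delH1 and 127 to 1424 units in Med6_WT. The 6 a-specific genes had at most 6.09 units in Med6_delH1 and 13.8 units in Med6_WT. The auxotrophic markers other than LEU2 had at most 0.37 units in Med6_delH1 and 0.50 units in Med6_WT. LEU2, the plasmid marker, averaged 247 ± 50.4 units in Med6_delH1 and 567 ± 175 units in Med6_WT (SD, n = 3 each), a change relative to the median gene of −0.04 ± 0.17. HIS3, which the labels give as the marker beside OsTIR, was at 0 in all 6 libraries, so that label was not matched by signal at HIS3.

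Nearly every gene had less deposited signal in Med6_delH1. The median signal of the tested genes was 27.3, 23.3 and 24.2 in the Med6_delH1 libraries and 61.9, 50.6 and 53.5 in the Med6_WT libraries. The groups did not overlap, and an exact two-sided permutation test of the 6 medians gave p = 0.1, the smallest value that 3 libraries against 3 allow. The median gene changed by −1.12 on the log2 scale of signal plus 1, a signal 2.17-fold lower, and genes at the 5th and 95th percentiles changed by −1.54 and −0.80. In the limma fit on this scale 4543 genes fell (99.8% of those tested) and 1 rose (0.0220%), and 3396 of the falls were over 2-fold. For 99.5% of tested genes every Med6_delH1 library was below every Med6_WT library. Because the basis of the scaling factor is not given, a lower output of the typical gene and a difference in scaling cannot be told apart, nor can fewer cells and less RNA per cell. Each gene is therefore given also relative to the median gene, where a positive value means that the gene held its signal better than most and a negative value that it lost more than most. Log2 values of genes with little signal are understated by the added 1.

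**Figure D1:**
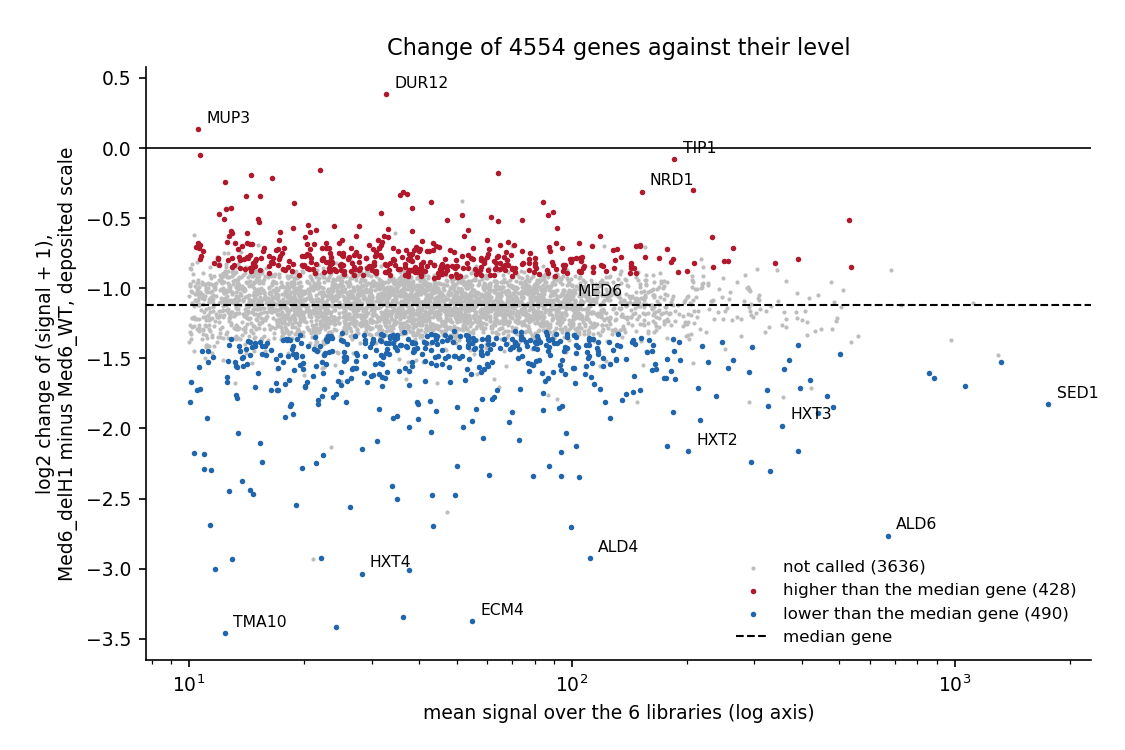
Each point is 1 of the 4554 genes, with its mean signal over the 6 libraries on a log axis and its log2 change (Med6_delH1 minus Med6_WT) on the vertical axis; red and blue mark genes called higher (428) and lower (490) than the median gene, and the dashed line marks the median gene at −1.12. Nearly all genes lie below 0 at every level, and those that depart most from the dashed line lie below it.

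Relative to the median gene, 428 genes were higher in Med6_delH1 (9.40% of those tested) and 490 were lower (10.8%). The departures were larger downwards: 46 genes were lower by over 2-fold and 4 were higher by over 2-fold. The filter used the mean of both groups, so some of the 46 passed it only through Med6_WT. TMA10, HXT7, ECM4, CWP1, HXT4, INO1, OSI1, CAT8 and TDH1 were among them, with Med6_delH1 means of 1.31 to 9.28 units. The excess of large falls was thus partly shaped by the filter. Most genes kept close to the median, with the 5th and 95th percentiles at −0.42 and 0.32. The median change hardly followed the level of the gene. Across 5 equal bins of mean signal, the median relative change ran over 0.02, 0.01, 0.01, −0.00 and −0.02 with rising level. The calls followed it more: in the bin of highest signal 134 of 911 genes were lower and 73 higher. The other bins had 85 to 92 lower and 74 to 99 higher. The number of calls rested on several libraries: without Med6_delH1 A it was 401 in place of 918, without Med6_delH1 C 442, without Med6_WT A 607 and without Med6_WT C 558.

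The 12 genes with the lowest change, taken by their values among called genes whose libraries did not overlap, were TMA10, HXT7, ECM4, CWP1, HXT4, INO1, OSI1, CAT8, TDH1, ALD4, ALD6 and CHA1. For comparison, 19.8% of all tested genes had every Med6_delH1 library below every Med6_WT library after the shift to the median gene, and 20.3% had every one above. HXT7 and HXT4 encode high-affinity glucose transporters of the plasma membrane. HXT7 had 4.14, 4.43 and 1.71 units of signal in Med6_delH1 and 38.5, 58.1 and 38.2 units in Med6_WT, a relative change of −2.30 ± 0.27 (limma, adjusted p = 0.000744). HXT6 is a near-identical neighbour of HXT7, so the split of reads between them is uncertain. HXT4 had 5.29, 6.95 and 3.79 units in Med6_delH1 and 46.9, 67.0 and 39.6 units in Med6_WT (relative change −1.92 ± 0.24, adjusted p = 0.00101). Each Med6_WT library was above every Med6_delH1 library for both genes, but this was also so for 99.5% of all tested genes. The choice of these 12 genes moreover required no overlap after the shift to the median gene.

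Enzymes and a regulator of carbon metabolism other than glucose uptake were also among these 12. CAT8, the activator of gluconeogenic genes, had 2.66, 2.11 and 1.95 units in Med6_delH1 and 24.5, 25.1 and 21.4 units in Med6_WT, a relative change of −1.81 ± 0.11 (limma, adjusted p = 4.87e-05) with little scatter in either group. ALD6 encodes the cytosolic aldehyde dehydrogenase that makes acetate, and ALD4 its main mitochondrial counterpart. ALD6 had 193, 199 and 127 units in Med6_delH1 and 1278, 1020 and 1198 units in Med6_WT. ALD4 had 29.7, 29.9 and 17.5 units in Med6_delH1 and 211, 203 and 178 units in Med6_WT. Their relative changes were −1.65 ± 0.15 and −1.81 ± 0.17 (limma, adjusted p = 0.0002 and 0.000214). TDH1, an isozyme of glyceraldehyde-3-phosphate dehydrogenase, had 3.92, 7.17 and 2.12 units in Med6_delH1 and 31.7, 61.7 and 25.9 units in Med6_WT. Library B was the highest of both groups, and the relative change of −1.81 ± 0.39 (limma, adjusted p = 0.0124) lost its call without Med6_delH1 A (adjusted p = 0.0541).

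The remaining 6 were of varied function. TMA10, a small ribosome-associated protein, fell furthest: it had 1.6, 1.84 and 0.50 units in Med6_delH1 and 24.5, 23.2 and 22.9 units in Med6_WT, a relative change of −2.34 ± 0.21 (limma, adjusted p = 0.000178). CWP1, a mannoprotein of the cell wall, had 6.83, 5.76 and 4.42 units in Med6_delH1 and 70.5, 53.1 and 76.3 units in Med6_WT. ECM4, a glutathione transferase, had 12.5, 10.5 and 4.81 units in Med6_delH1 and 119, 83.7 and 98.9 units in Med6_WT. The relative changes of CWP1 and ECM4 were −2.22 ± 0.13 and −2.26 ± 0.23 (limma, adjusted p = 4.87e-05 and 0.000405). OSI1, known as a gene induced by oxidative stress, averaged 1.80 ± 0.77 units in Med6_delH1 and 21.7 ± 7.47 units in Med6_WT (SD, n = 3 each). INO1, which makes inositol phosphate for phospholipids, varied most of these 12 among the Med6_WT libraries. It had 5.52, 7.54 and 5.42 units in Med6_delH1 and 42.7, 133 and 30.9 units in Med6_WT, and its call (adjusted p = 0.0190) was lost without Med6_delH1 A (0.0758) or Med6_delH1 C (0.0532). CHA1, a catabolic serine and threonine deaminase, had 17.5, 43.4 and 19.1 units in Med6_delH1 and 187, 221 and 109 units in Med6_WT; its call (adjusted p = 0.0150) was lost without Med6_delH1 A (0.0621) or Med6_WT A (0.0535).

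Med6_delH1 C was the lowest of the 6 libraries for each of these 12 genes except CHA1.

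**Figure D2:**
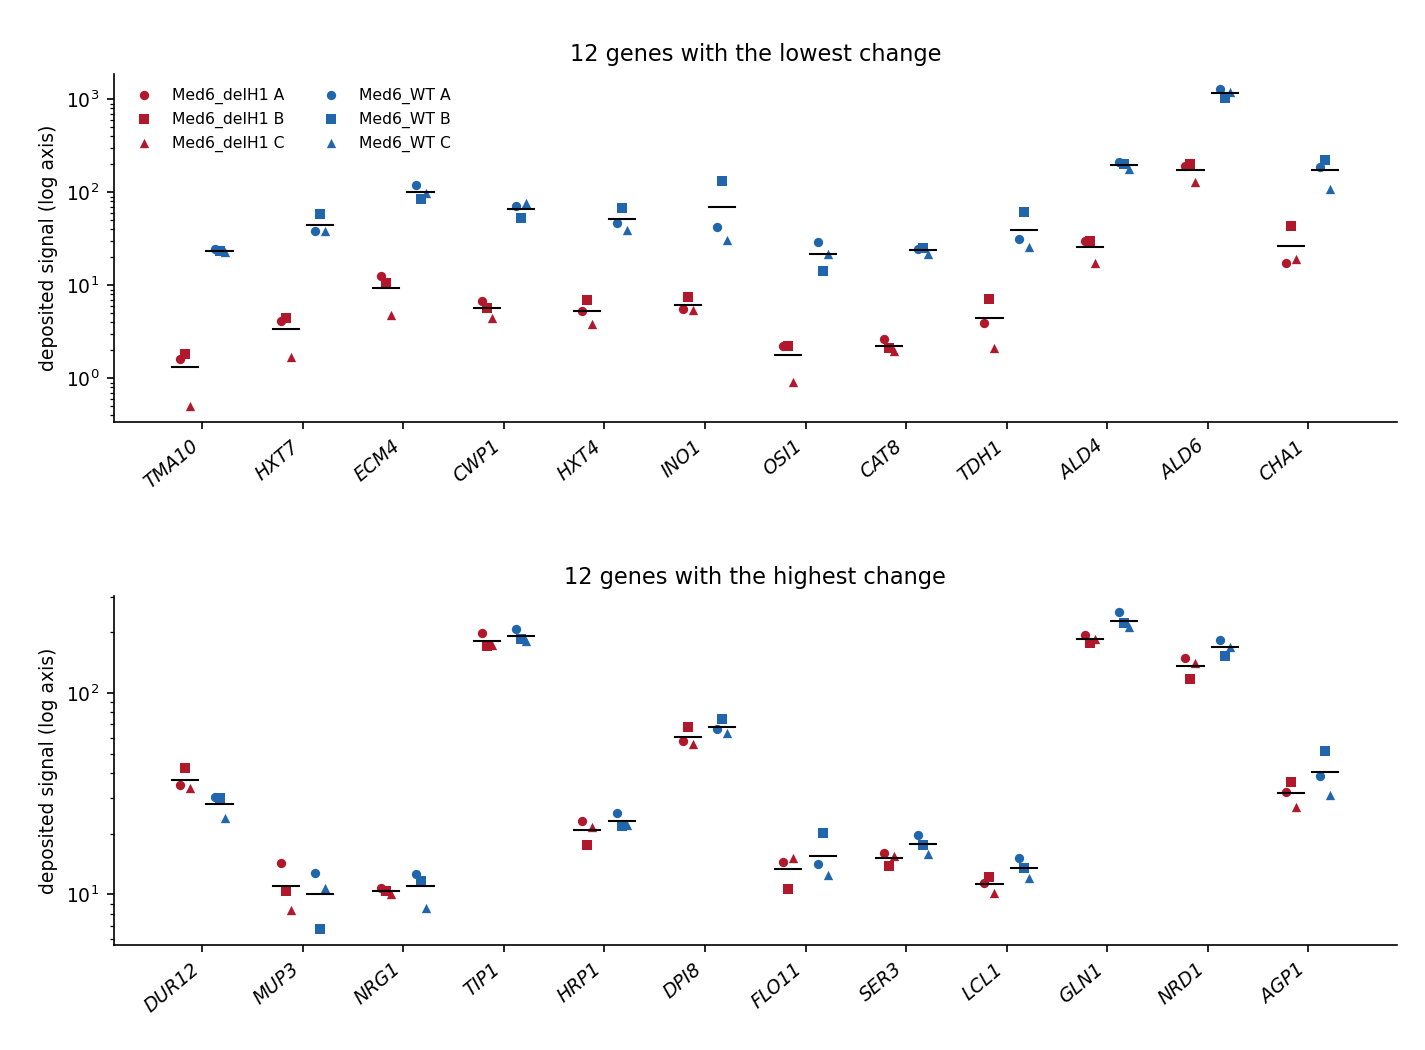
Deposited signal (log axis) of the 12 genes with the lowest and the 12 with the highest log2 change in each library; red is Med6_delH1, left, and blue is Med6_WT, right, with 1 symbol per replicate letter and a bar at the mean of 3. In the upper panel the groups are apart, as they were for 99.5% of all tested genes. In the lower panel the groups lie close together although the median gene was 2.17-fold lower.

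The hexose transport list, the glucose carriers with their sensors and regulators, had the lowest median of the lists of 3 or more tested genes. Of its 9 tested genes 7 were lower than the median gene and 1 was higher, against 10.8% and 9.40% of all tested genes. The median of the list was −0.86. All 5 tested carriers were lower. HXT3, a low-affinity carrier, had 154, 145 and 128 units in Med6_delH1 and 637, 510 and 549 units in Med6_WT (relative change −0.86 ± 0.08). HXT2 and HXT1, a high-affinity and a low-affinity carrier, changed by −1.05 ± 0.09 and −0.49 ± 0.09. The regulators did not move together. MTH1, a corepressor of HXT genes, fell with its targets at −1.23 ± 0.19, while its paralog STD1 was higher at 0.44 ± 0.06 (limma, adjusted p = 0.00351 and 0.00203). The glucose sensor gene SNF3 was at −0.25 ± 0.08 (adjusted p = 0.0481), a call lost without each of the 6 libraries in turn, and the sensor gene RGT2 at 0.14 ± 0.07 did not pass (adjusted p = 0.181). Without 1 library in turn, 6 genes of the list were still called lower each time.

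Of 14 tested genes known to respond to the stress activators Msn2 and Msn4, 6 were lower and 0 were higher, with a median of −0.39. Over all tested genes 10.8% were lower and 9.40% higher. HXK1, a hexokinase used when glucose is scarce, had 16.6, 18.5 and 9.08 units in Med6_delH1 and 82.6, 105 and 65.6 units in Med6_WT (relative change −1.36 ± 0.25). YGP1, a secreted glycoprotein of starved cells, and TSL1, a trehalose synthase subunit, changed by −0.95 ± 0.20 and −0.74 ± 0.21. With a robust limma prior, chosen after the data were seen, 2 of the 14 were called lower, and the calls of HXK1, YGP1 and TSL1 were lost (adjusted p = 0.0741, 0.0933 and 0.169). With the prior of the fit used here, the list had 2 genes called lower without Med6_delH1 A or C or Med6_WT A or B, and 5 and 6 without Med6_delH1 B and Med6_WT C; the call of TSL1 was lost without either Med6_delH1 A or C, or Med6_WT A or B (adjusted p = 0.0591 to 0.0973). GPD1 and GPP2, which make glycerol in successive steps, changed by −1.35 ± 0.21 and −1.44 ± 0.11 (limma, adjusted p = 0.00351 and 8.9e-05). GPP2 had 7.55, 7.63 and 5.74 units in Med6_delH1 and 47.5, 44.3 and 45.6 units in Med6_WT.

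Of 19 tested cell wall genes 8 were lower, 1 was higher and 10 were not called, and 5, 5 and 4 were lower without Med6_delH1 A, Med6_delH1 C and Med6_WT C. For this list and those that follow, the shares over all tested genes were 10.8% lower and 9.40% higher. SED1, an abundant wall protein, had 915, 802 and 624 units in Med6_delH1 and 2824, 2713 and 2669 units in Med6_WT (relative change −0.71 ± 0.14). CWP2 changed by −0.73 ± 0.12 and CRH1, which links glucan to chitin, by −0.53 ± 0.07. HSP150, a secreted wall protein, changed by −0.40 ± 0.10, a call lost without Med6_delH1 A or Med6_WT C (adjusted p = 0.0580 and 0.0581). Of the 5 alpha-specific genes, 4 were lower: the pheromone gene MF(ALPHA)2 (−0.91 ± 0.15), the agglutinin gene SAG1 (−0.60 ± 0.11), the receptor gene STE3 (−0.54 ± 0.08) and AFB1 (−0.39 ± 0.08). The main pheromone gene MF(ALPHA)1 at −0.25 ± 0.11 did not pass (adjusted p = 0.118). In the pheromone pathway 7 of 17 tested genes were lower and 1 was higher, and the median was −0.01. Without Med6_delH1 C or Med6_WT C 4 were lower, and 5 or 6 without 1 of the other libraries. Those lower included FUS1, a cell fusion protein, at −1.16 ± 0.15, the agglutinin anchor AGA1 at −0.96 ± 0.08, the kinase FUS3 at −0.46 ± 0.08 and the cyclin inhibitor FAR1 at −0.39 ± 0.08. FUS1 had 7.92, 4.47 and 6.02 units in Med6_delH1 and 30.9, 29.8 and 39.1 units in Med6_WT.

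Of 42 tested amino acid genes of the Gcn4 list, 12 were lower and 4 were higher, with a median of −0.23. The shares over all tested genes, for each list here, were 10.8% lower and 9.40% higher. The 4 higher genes (9.52%) were near that share. LEU4 and ARO3, the entry enzymes of leucine and of aromatic amino acid synthesis, changed by −0.65 ± 0.07 and −0.68 ± 0.11. ARG4, of arginine synthesis, had 90.8, 87.3 and 80.0 units in Med6_delH1 and 302, 492 and 246 units in Med6_WT; its relative change of −0.82 ± 0.23 (limma, adjusted p = 0.0343) lost its call without any 1 of the Med6_delH1 libraries (0.0558 to 0.109). GCN4, the activator of these genes, was itself higher at 0.39 ± 0.07. The list had 4 and 5 genes called lower without Med6_delH1 A and C, and 9 to 14 without 1 of the other libraries. Of 16 tested genes of the phosphate regulon, 8 were lower and 0 were higher, with 4 and 5 lower without Med6_delH1 A and C. The lowest of this list was GPP2, named above for glycerol synthesis. PHO84, the high-affinity phosphate transporter, had 179, 184 and 189 units in Med6_delH1 and 654, 609 and 554 units in Med6_WT (relative change −0.59 ± 0.10), and PHM6, of unknown function, changed by −0.71 ± 0.08. ITR1, the inositol transporter, changed by −0.54 ± 0.13 and lost its call without Med6_delH1 A (adjusted p = 0.0816). PDR5, the main drug pump, changed by −0.77 ± 0.16, within a drug efflux list in which 6 of 13 tested genes were lower and 2 were higher; the acid pump gene PDR12 was higher at 0.51 ± 0.11, a call lost without Med6_delH1 A (0.0550). CTS1, the chitinase that separates daughter from mother cells, was lower at −0.65 ± 0.07.

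The 12 genes with the highest change were DUR12, MUP3, NRG1, TIP1, HRP1, DPI8, FLO11, SER3, LCL1, GLN1, NRD1 and AGP1. DUR12 encodes urea amidolyase, which feeds nitrogen from urea into metabolism. It was the 1 gene that rose on the deposited scale: it had 35.0, 42.5 and 33.8 units in Med6_delH1 and 30.6, 30.1 and 24.01 units in Med6_WT (log2 change 0.38 ± 0.14, limma, adjusted p = 0.0066). That deposited call was lost without Med6_delH1 B or Med6_WT C, when 0 genes were called higher. Relative to the median gene DUR12 was higher by 1.50 ± 0.13 (adjusted p = 0.000178) whichever library was left out. GLN1, glutamine synthetase, had 194, 177 and 184 units in Med6_delH1 and 251, 222 and 212 units in Med6_WT, a relative change of 0.82 ± 0.07. AGP1, an amino acid permease, was at 0.80 ± 0.19 (adjusted p = 0.0194), a call lost without Med6_delH1 A or B or Med6_WT A or C (0.0541 to 0.0756). These 3 were the called genes among 9 tested genes of nitrogen catabolite repression, whose median was 0.50, and 6 of the 9 were called without Med6_WT B. Over all tested genes 9.40% were called higher.

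Other high genes belong to RNA-level control and to the surface. NRD1 and HRP1 encode RNA-binding proteins of transcription termination, and NRD1 is known to shorten its own transcripts. NRD1 had 150, 118 and 140 units in Med6_delH1 and 184, 152 and 169 units in Med6_WT. HRP1 had 23.2, 17.5 and 21.6 units in Med6_delH1 and 25.3, 21.98 and 22.08 units in Med6_WT. SER3, of serine synthesis and known to be repressed by transcription of a noncoding RNA over its promoter, averaged 15.1 ± 1.11 units in Med6_delH1 and 17.8 ± 1.96 units in Med6_WT (SD, n = 3 each). Their relative changes were 0.81 ± 0.07, 0.96 ± 0.08 and 0.90 ± 0.08 (limma, adjusted p = 0.000178, 0.000121 and 0.000178). They were the 3 higher genes among 6 tested genes of the Nrd1 list, against 9.40% of all tested genes. SER3 was also counted in the Gcn4 list, as its highest member. URA8, of CTP synthesis, was lower at −0.46 ± 0.07. TIP1, a mannoprotein of the cell wall, had 197, 171 and 172 units in Med6_delH1 and 206, 185 and 180 units in Med6_WT, so that it stood almost level in the strains and was higher than the median gene by 1.04 ± 0.07. It moved opposite to CWP1, CWP2 and SED1 of the same list. MUP3, a low-affinity methionine permease, had 14.3, 10.4 and 8.38 units in Med6_delH1 and 12.8, 6.73 and 10.7 units in Med6_WT, and these groups overlapped before the shift to the median gene. NRG1, a repressor of glucose-repressed genes, averaged 10.4 ± 0.40 units in Med6_delH1 and 10.96 ± 2.13 units in Med6_WT. FLO11 and FLO5, adhesins of the surface, were higher by 0.93 ± 0.19 and 0.78 ± 0.11; FLO5 has near-identical copies, and its reads may be split among them.

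Of 19 tested genes of cyclins and cell cycle switches, 9 were higher than the median gene, 0 were lower and 10 were not called, with a median of 0.19. Over all tested genes 9.40% were higher and 10.8% lower. The late G1 cyclins led: CLB6 was higher by 0.69 ± 0.09, PCL1 by 0.66 ± 0.11, CLN1 by 0.64 ± 0.10 and CLN2 by 0.43 ± 0.07. CLN2 had 126, 103 and 116 units in Med6_delH1 and 196, 181 and 181 units in Med6_WT, so it was still lower in Med6_delH1 before the shift to the median gene. CLN3, CLB2 and SWI5, which act at other stages of the cycle, were higher by 0.33 ± 0.08, 0.32 ± 0.08 and 0.28 ± 0.07; each of these 3 calls was lost without Med6_delH1 A, Med6_delH1 C or Med6_WT C, and that of CLN3 also without Med6_WT A (adjusted p = 0.0511 to 0.0980). The list had 4 genes called higher without Med6_delH1 A, Med6_delH1 C or Med6_WT C, and 6 to 8 without 1 of the other libraries. With a pseudocount of 5 it had 5, and CLN3, CLB2 and SWI5 were not called (limma, adjusted p = 0.0734, 0.0621 and 0.0675).

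Large groups of housekeeping genes followed the median gene. For scale, 9.40% of all tested genes were called higher and 10.8% lower. Of 136 tested genes of cytosolic ribosomal proteins 4 were lower and 1 was higher, with a median of −0.06; RPL8A at −0.46 ± 0.07 and RPL18B at 0.39 ± 0.08 were the extremes, and most of these genes have a close paralog that may share reads. The number of lower ribosomal protein genes was 16 without Med6_WT A, 3 without Med6_delH1 B and 1 without any other single library. Of 65 tested genes of mitochondrial ribosomal proteins 0 were called in either direction, and of 56 genes of ribosome biogenesis 5 were higher, UTP9 most (0.44 ± 0.07). Subunits of RNA polymerase II and the general factors had 4 of 30 genes higher, with the TFIIH cyclin CCL1 at 0.41 ± 0.06, and TFIID with SAGA 2 of 26, with TAF3 at 0.31 ± 0.06, a call lost without Med6_delH1 A (adjusted p = 0.0516). The shares called higher were 8.93% for ribosome biogenesis, 13.3% for RNA polymerase II with its factors and 7.69% for TFIID with SAGA. Over all tested genes the share was 9.40%. Without 1 library in turn, the ribosome biogenesis genes called higher numbered 2 (without Med6_delH1 C or Med6_WT C) to 4, and those of RNA polymerase II and its factors 2 (without Med6_delH1 A, Med6_delH1 C or Med6_WT C) to 4. Those of TFIID and SAGA numbered 0 without Med6_delH1 A, 1 without Med6_delH1 C, Med6_WT A or Med6_WT C, and 2 without either B library. Of 34 proteasome genes 1 was lower and RPN4, their activator, was higher at 0.49 ± 0.06. The other Mediator genes did the same: of 22 tested, MED6 included, all fell on the deposited scale, and relative to the median gene MED1 of the middle module (0.25 ± 0.06) and SSN8, the kinase module cyclin (0.25 ± 0.08), were higher with adjusted p = 0.0261 and 0.0475. The MED1 call was lost without Med6_delH1 A or C or Med6_WT A or C (0.0599 to 0.103), and the SSN8 call without any library except Med6_WT B (0.104 to 0.144). The head module, which holds Med6, had relative changes of −0.17 to 0.12 over its 7 tested genes.

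**Figure D3:**
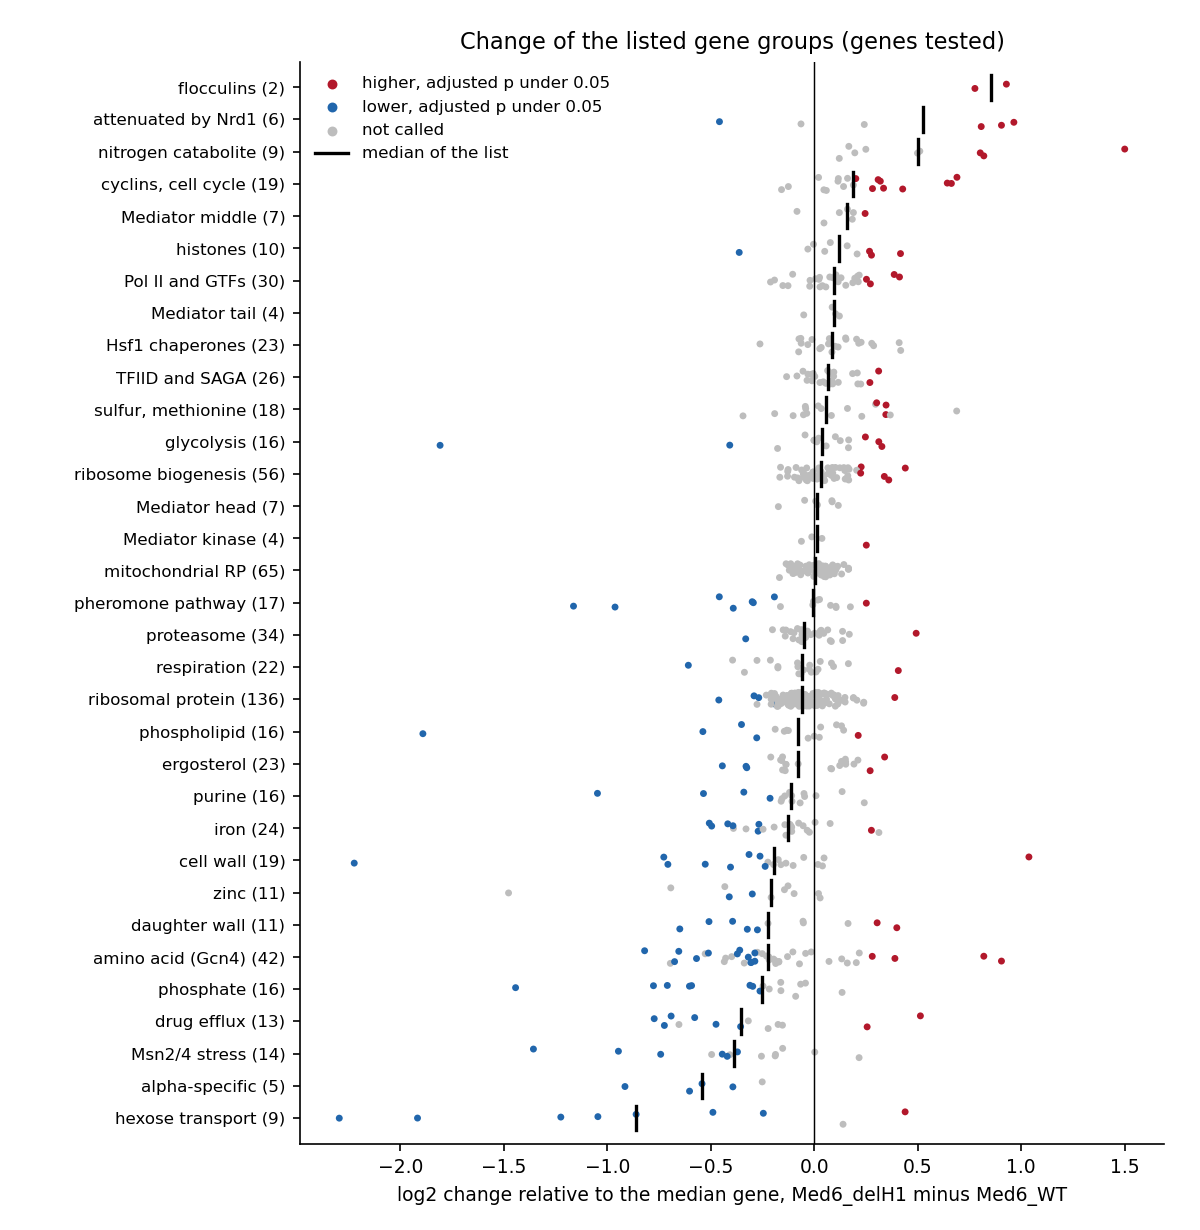
Each point is a tested gene, placed by its log2 change relative to the median gene (Med6_delH1 minus Med6_WT), with lists ordered by their median (black bar) and the number tested in brackets; red and blue mark adjusted p under 0.05. Hexose transport, alpha-specific and Msn2/4 genes lie to the left, and flocculins, the Nrd1 list and nitrogen genes to the right. The Nrd1 list is labelled as attenuated by Nrd1 but also holds SER3.

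Promoters of the 3 lowest and the 2 highest genes are printed because they are the extremes of the comparison. Each line is the stretch from 250 to 51 bases before the start codon, 5′ to 3′ on the strand of the gene, read from the RefSeq genome R64 (sacCer3). Capitals mark every match, on either strand and with overlaps counted, to TATANAN with A or T at each N, the TATA box letters bound by the TATA-binding protein. The stretches are chrXII:783438-783637 (minus strand) for TMA10, chrIV:1155979-1156178 (minus) for HXT7, chrXI:582033-582232 (plus) for ECM4, chrII:642261-642460 (minus) for DUR12 and chrVIII:25991-26190 (plus) for MUP3.
TMA10: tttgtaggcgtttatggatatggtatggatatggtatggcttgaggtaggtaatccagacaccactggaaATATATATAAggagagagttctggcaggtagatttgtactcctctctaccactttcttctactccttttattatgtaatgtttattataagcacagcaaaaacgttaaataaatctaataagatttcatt
HXT7: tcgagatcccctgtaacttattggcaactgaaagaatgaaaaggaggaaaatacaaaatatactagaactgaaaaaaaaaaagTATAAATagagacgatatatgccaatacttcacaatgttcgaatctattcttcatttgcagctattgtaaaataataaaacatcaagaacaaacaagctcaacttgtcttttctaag
ECM4: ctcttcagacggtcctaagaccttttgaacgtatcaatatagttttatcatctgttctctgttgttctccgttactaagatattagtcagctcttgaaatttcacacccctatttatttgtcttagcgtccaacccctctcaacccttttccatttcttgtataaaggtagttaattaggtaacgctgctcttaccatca
DUR12: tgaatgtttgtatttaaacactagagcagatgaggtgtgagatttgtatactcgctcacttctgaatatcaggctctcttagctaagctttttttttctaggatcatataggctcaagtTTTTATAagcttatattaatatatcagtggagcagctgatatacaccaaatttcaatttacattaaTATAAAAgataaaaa
MUP3: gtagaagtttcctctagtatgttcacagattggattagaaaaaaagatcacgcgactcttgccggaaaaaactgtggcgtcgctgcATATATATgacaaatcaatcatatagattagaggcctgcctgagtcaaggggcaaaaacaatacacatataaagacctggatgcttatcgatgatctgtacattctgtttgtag

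These TATA letters did not separate the extremes: TMA10 and HXT7 at the low end and DUR12 and MUP3 at the high end held matches, and ECM4 held 0. Over the window from 250 bases before to 50 after the start codon, 49.97% of all 5792 promoters held a match, as did 47.6% of tested genes, 58.6% of genes called lower than the median gene and 49.3% of those called higher. The median relative change was −0.02 with a match and 0.02 without. The low tail differed more, with the 5th percentile at −0.54 with a match and −0.32 without. AGGGG, the letters of the Msn2 and Msn4 site, was present in 21.8% of all promoters, in 27.1% of genes called lower and in 17.8% of genes called higher. These shares describe letters in a window and were not tested.

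The level of the extreme genes in other strains of the series gives a scale for these changes. Each gene's signal was set as a multiple of its library's median gene in Med7_WT, Med21_WT and Med17_DMSO, control groups of other experiments, as a description with no test. These genes were picked by the difference between Med6_delH1 and Med6_WT. Extreme places of those groups are therefore partly built in, and the shares of all tested genes below are not a fair background. The libraries labelled Med7_WT went against their plasmid label, which gives LEU2 as the marker: LEU2 had 0.13 to 0.4 units in them and TRP1 11.4 to 13.8 units. Of the 12 lowest genes, 7 stood in Med6_delH1 below all 3 of these controls, against 34.5% of all tested genes, and 5 within their range. In Med6_WT, 8 of the 12 stood above all 3 controls and 4 within their range, against 26.2% of all tested genes that stood above. HXT7 was at 0.14 in Med6_delH1 and 0.83 in Med6_WT, and at 0.34, 0.16 and 0.02 in Med7_WT, Med21_WT and Med17_DMSO. CHA1 was at 1.10 in Med6_delH1 and 3.14 in Med6_WT, and at 0.88, 1.40 and 1.21 in those controls. For both genes Med6_WT was the highest of the 4 controls. ALD6 was at 6.97 in Med6_delH1, below 21.1 in Med6_WT and below 18.5, 17.8 and 9.80 in the other controls. Of the 12 highest genes, 8 stood in Med6_delH1 above all 3 controls, against 25.3% of all tested genes, TIP1 among them at 7.23, against 3.45 in Med6_WT and 1.59, 2.85 and 2.70 in the others. With the libraries labelled Med7_WT left out, 8 of the 12 lowest genes stood in Med6_delH1 below both other controls (42.9% of all tested genes), 9 of them stood in Med6_WT above both (32.2%), and 8 of the 12 highest stood in Med6_delH1 above both (30.4%).

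**Figure D4:**
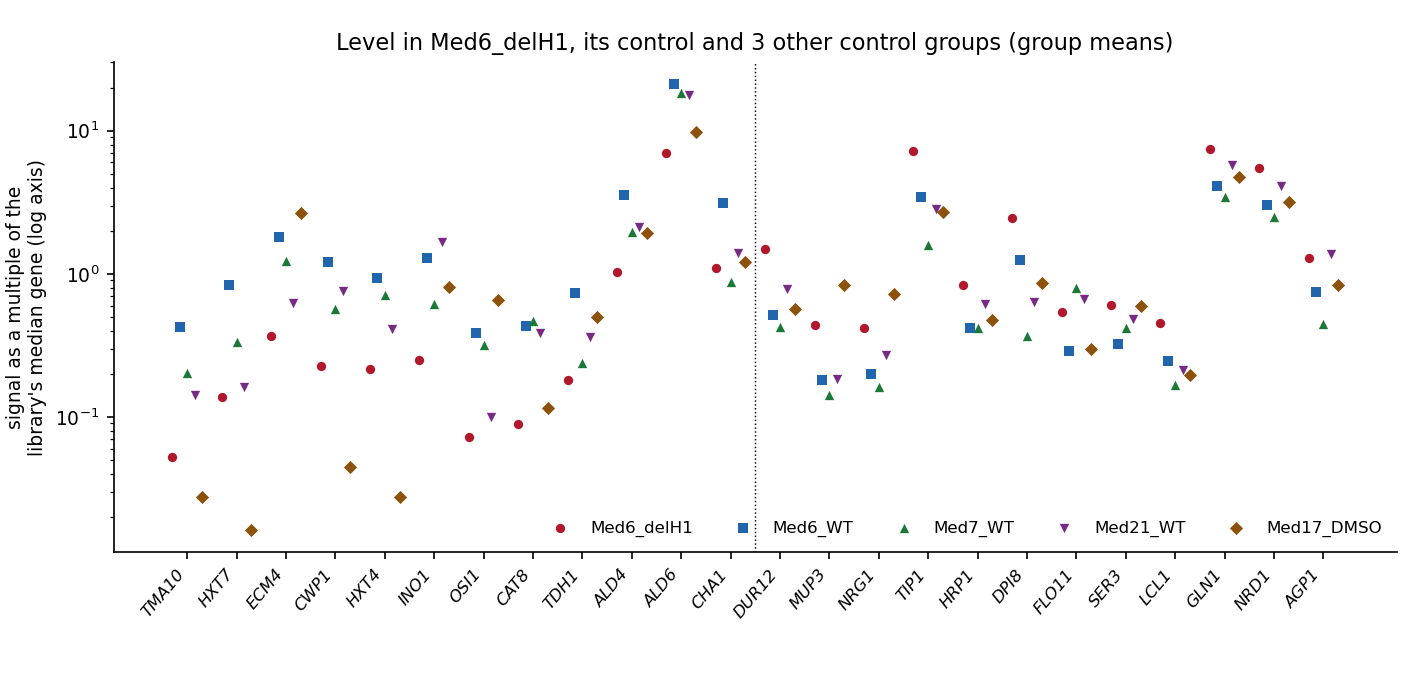
Signal of the 12 lowest (left of the dotted line) and 12 highest genes as a multiple of the library's median gene, on a log axis, as group means of 3 libraries (2 for Med21_WT); Med6_delH1 is red, Med6_WT blue, and the 3 other symbols are controls of other experiments. HXT7 and CHA1 lie higher in Med6_WT than in every other control, and TIP1 and DUR12 lie highest in Med6_delH1.

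The Med6_delH1 change was set beside 3 other changes of Mediator that share no library with it. In med7N_del against Med7_WT, the strains carried med7 without its N-terminal part on a TRP1 plasmid, or MED7 on a LEU2 plasmid, over a chromosomal deletion of MED7, per the labels (3 libraries each). LEU2 had 0.03 to 0.07 units in med7N_del and 0.13 to 0.4 units in Med7_WT, and TRP1 had 4.26 to 5.75 units in med7N_del and 11.4 to 13.8 units in Med7_WT. The marker of the libraries labelled Med7_WT therefore went against their label, and every value against med7N_del rests on them. MED7 itself differed between the groups, with means of 16.9 units in med7N_del and 129 units in Med7_WT (relative change −1.81). In Med21_EWE4 against Med21_WT, they carried the EWE4 allele of med21, or MED21, on LEU2 plasmids over a chromosomal deletion (2 libraries each). In Med17 3IAA against DMSO, 1 strain with a degron on Med17, a head subunit, and a tagged RPB3 was treated with 3IAA or with DMSO (3 libraries each). Otherwise the strains shared the background given above. The median gene changed by −1.12 in Med6_delH1, −1.05 in med7N_del, −1.14 in Med21_EWE4 and −1.66 after 3IAA in the Med17 strain. On the deposited scale 99.0% of tested genes fell and 0.296% rose in med7N_del, 98.3% fell and 0.405% rose in Med21_EWE4, and 99.7% fell and 0.101% rose in the Med17 strain. Across genes, the relative change of Med6_delH1 and that of each of these had a Pearson correlation of 0.41 (4332 genes), 0.42 (4376 genes) and 0.40 (3953 genes). This describes genes, which are not independent replicates. Of the genes lower than the median gene in Med6_delH1, 213 were lower in med7N_del (45.2% of the Med6 calls and 26.6% of the med7N_del calls, which made up 18.5% of genes tested there), 152 in Med21_EWE4 (32.0% and 41.4%, background 8.36%) and 217 in the Med17 strain (52.3% and 21.1%, background 26.1%). Of the genes higher than the median gene in Med6_delH1, 231 were higher in med7N_del (55.7% and 30.9%, background 17.4%), 76 in Med21_EWE4 (18.1% and 34.4%, background 5.32%) and 231 in the Med17 strain (59.2% and 22.1%, background 26.4%). Each background is the share called in the other comparison and belongs to the first percentage only. The second percentage is to be read against the Med6_delH1 calls, which were 10.8% lower and 9.40% higher of genes tested there.

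The difference between changes was tested for each pair by a limma fit to all libraries of both. On the deposited scale, 35 genes changed more positively (0.779%) and 243 more negatively (5.41%) in Med6_delH1 than in med7N_del, 85 (1.88%) and 105 (2.32%) than in Med21_EWE4, and 3035 (69.6%) and 65 (1.49%) than in the Med17 strain. Relative to the median gene, the numbers were 119 (2.65%) and 253 (5.63%) for med7N_del, 181 (4.00%) and 166 (3.67%) for Med21_EWE4, and 618 (14.2%) and 728 (16.7%) for Med17. The more positive changes against Med17 on the deposited scale went with its lower median gene.

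HXT4 departed from both plasmid-borne mutants. Its relative change was −1.92 in Med6_delH1 and 0.73 in med7N_del, a difference of −2.64 ± 0.38 (limma, adjusted p = 0.00117), and 1.23 in Med21_EWE4, a difference of −3.16 ± 0.41 (adjusted p = 0.000734). The control levels differed too, at 51.2 units in Med6_WT, 38.02 in Med7_WT and 21.8 in Med21_WT. In the Med17 strain HXT4 and HXT7 were at 1.24 and 0.73 units already with DMSO, so no fall can be read there. OYE3, an NADPH oxidoreductase, was at −1.58 in Med6_delH1 and 1.17 in med7N_del (difference −2.74 ± 0.42, adjusted p = 0.00157), with 74.8 units in Med6_WT and 45.1 in Med7_WT. The call of OYE3 in Med6_delH1 itself was lost without Med6_WT A (limma, adjusted p = 0.0513) and with a robust limma prior (0.109). CWP1 fell in Med6_delH1 (−2.22) and was at −2.33 in med7N_del, but at 0.54 in Med21_EWE4 (difference −2.77 ± 0.23, adjusted p = 4.76e-05). CHA1 went the other way against med7N_del: it was at −1.59 in Med6_delH1 and −3.60 in med7N_del (difference 2.02 ± 0.49, adjusted p = 0.0241), with means of 0.86 units in med7N_del and 47.0 units in Med7_WT; that call was lost without med7N_del A or Med7_WT B or C. FLO11 was at 0.93 in Med6_delH1 and −0.40 in med7N_del (difference 1.34 ± 0.24, adjusted p = 0.00439).

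Of 16 tested genes of the phosphate regulon, 14 changed more positively and 1 more negatively in Med6_delH1 than in Med21_EWE4, relative to the median gene, against 4.00% and 3.67% of all genes. The 1 more negative was GPP2, a glycerol enzyme counted in this list (difference −1.45 ± 0.17, limma, adjusted p = 0.000313). PHO84 and VTC3 are named for their values. PHO84 was at −0.59 in Med6_delH1 and −4.06 in Med21_EWE4 (difference 3.46 ± 0.37, limma, adjusted p = 0.000182), with means of 184 units in Med6_delH1 and 606 units in Med6_WT, and of 15.2 units in Med21_EWE4 and 563 units in Med21_WT. VTC3, which makes polyphosphate in the vacuole, was at −0.31 in Med6_delH1 and −2.66 in Med21_EWE4 (difference 2.34 ± 0.15, adjusted p = 7.87e-06). The median of the list was −0.26 in Med6_delH1, −0.14 in med7N_del, −1.70 in Med21_EWE4 and −0.08 in the Med17 strain.

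Of 23 tested chaperone genes driven by Hsf1, the heat shock factor, 19 changed more positively and 0 more negatively in Med6_delH1 than in the Med17 strain, relative to the median gene, against 14.2% and 16.7% of all genes. In Med6_delH1, 0 of the 23 were called in either direction relative to the median gene, and their median was 0.09, while it was −0.80 in the Med17 strain after 3IAA. HSP42, SSA1 and HSP104 are named for their values. HSP42, a small heat shock protein, was at 0.29 ± 0.23 in Med6_delH1 and −2.06 in the Med17 strain (difference 2.33 ± 0.32, limma, adjusted p = 0.000183). SSA1, an Hsp70 with a near-identical paralog, was at 0.21 ± 0.16 in Med6_delH1 and −1.52 in the Med17 strain (difference 1.72 ± 0.21, adjusted p = 8.95e-05), and HSP104, a disaggregase, at 0.07 ± 0.15 in Med6_delH1 and −1.54 in the Med17 strain (difference 1.59 ± 0.20, adjusted p = 9.22e-05). The control levels were far apart: HSP42 averaged 27.7 units in Med6_WT and 180 units in the Med17 strain with DMSO, and SSA1 57.5 units in Med6_WT and 229 units in the Med17 strain with DMSO. What part these starting levels had in the differences was not tested. NRD1 was higher in both, at 0.81 in Med6_delH1 and 2.89 in the Med17 strain (difference −2.10 ± 0.18, adjusted p = 7.04e-06). AGA1 was lower than the median gene in Med6_delH1 at −0.96 and higher in the Med17 strain at 1.15 (difference −2.13 ± 0.11, adjusted p = 6.78e-08).

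**Figure D5:**
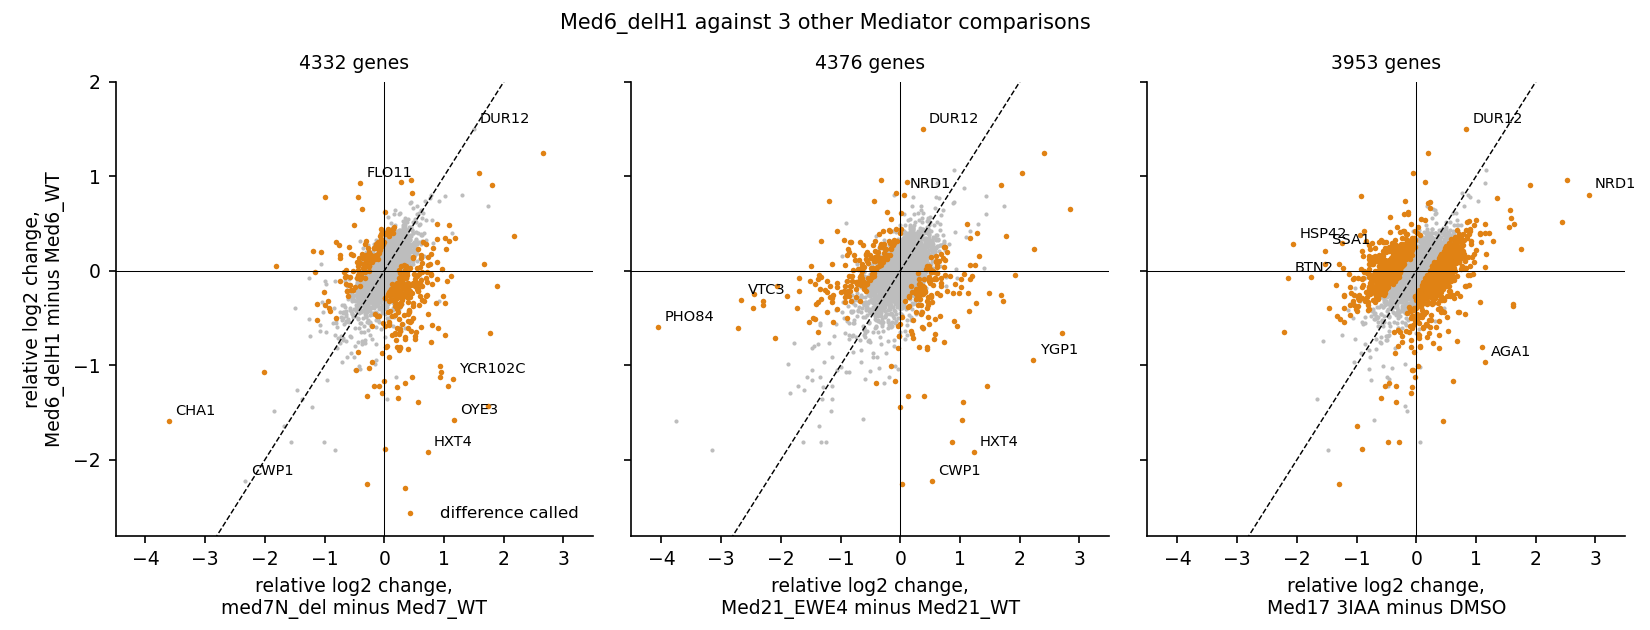
Log2 change relative to the median gene in Med6_delH1 (vertical axis) against that in med7N_del (left), Med21_EWE4 (centre) and Med17 3IAA (right), 1 point per gene; orange marks genes whose difference was called, and the dashed line marks equal change. HXT4 lies low in the left and centre panels, PHO84 far left in the centre panel, and HSP42 far left in the right panel.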

How the data were processed

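Newly made RNA was measured by RNA-seq. The submitters' processing notes name the tools Bowtie2 and HTSeq and the builds sacCer3 and ASM294v2 (fission yeast), without versions or roles; the Ovation Universal kit was used per the labels' protocols, and whether counting used strand is not given in the sources used here, so overlapping and antisense genes cannot be separated. The authors deposited 1 value per gene that the file headers call signal. All values of the 6 Med6 libraries were whole multiples of 1 step within the rounding of 0.005, so reads were recovered. Of 5794 gene IDs, 5792 matched the RefSeq annotation R64.

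Limma 3.58.1 (R 4.3.3) was fitted to log2(signal + 1) with its trend option, for genes with mean signal of at least 10, without a replicate block, with Benjamini-Hochberg adjustment over all of them. A gene was called at adjusted p under 0.05. Relative changes come from the same fit after each library was shifted so that its median gene was unchanged. On the deposited scale the limma prior had infinite degrees of freedom, so genes shared 1 variance trend; on the relative scale it had 5.84. Only the fit relative to the median gene was tested on simulated data, drawn with the same dispersion for every gene. The deposited-scale fit, the fits of differences, edgeR and DESeq2 were not tested in this way. Alternatives were edgeR 4.0.16 and DESeq2 1.42.0 on recovered reads, TMM, other pseudocounts and filters, a replicate block and leaving out each library; a robust prior and the levels in other control groups were added after the data were seen. The rule for named genes took MED6, Mediator genes, the 12 highest and 12 lowest called genes without overlap and, in each list, the most abundant, highest and lowest; other list members and genes of the differences were named after their values were seen. The members and gene lists were chosen with earlier results of these data known. Promoters were read from the genome because no promoter table was given, and other libraries of the series were not used.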

Additional observations from a re-analysis of the deposited data

How the results depend on the processing

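On the deposited scale, 4544 genes changed, 4535 to 4545 when 1 library was left out, and 1837 with a mean signal of at least 50, where fewer genes were tested. Scaling that centres the typical gene removed the shared fall by construction: 918 genes were called after the median-gene shift, 968 with TMM, 961 with edgeR and 947 with DESeq2, and the median log2 change of all genes became 0.0020, 0.013, 0.013 and −0.0012. Relative to the median gene, 918 genes were called (428 higher, 490 lower). The numbers were 1645 (861 higher, 784 lower) without a filter on low signal and 401 (195 higher, 206 lower) with a mean of at least 50. Without 1 library they ran from 401 (Med6_delH1 A) to 840 (Med6_WT B), with 166 to 417 higher and 235 to 426 lower; the cause was not tested.

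After the median-gene shift or TMM, genes with a small deposited fall lay above 0: MED6 at 0.015 and 0.052, NRG1 at 1.07 and 1.02, TIP1 at 1.04 and 1.08, HRP1 at 0.96 and 0.96, DPI8 at 0.94 and 0.97, FLO11 at 0.93 and 0.90, SER3 at 0.90 and 0.89, LCL1 at 0.88 and 0.84, GLN1 at 0.82 and 0.86, NRD1 at 0.81 and 0.85 and AGP1 at 0.80 and 0.82. Without 1 library the deposited change of MUP3, not called, ran from −0.11 to 0.31 (−0.056 without Med6_delH1 A) and that of NRG1, not called, from −0.20 to 0.052 (0.0028 without Med6_WT B). The relative change of MED6, near 0, was −0.064 with a pseudocount of 5, −0.018 without a filter and −0.058 to 0.081 without 1 library. That of LEU2 was 0.0024 with TMM and −0.27 to 0.081 without 1 library. Of the 24 extreme genes, a robust limma prior, chosen after seeing the data, ended the relative calls of INO1, TDH1, CHA1, FLO11 and AGP1 (adjusted p = 0.0640 to 0.141), and DESeq2 that of CHA1 (0.0536). Among the gene lists, amino acid genes called lower numbered 12, against 20 with a pseudocount of 5, 20 without a filter and 22 with a replicate block. Ribosomal protein genes called lower numbered 4, against 14, 10 and 8 in the same order and 1 with TMM or edgeR; the cause was not tested. Nitrogen genes called higher numbered 3, against 6 with a pseudocount of 5 or a replicate block, and ribosome biogenesis genes 5, against 2 with a pseudocount of 5.

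The difference from med7N_del was called for 278 genes, and for 115 with a mean signal of at least 50. For Med21_EWE4 it was 190 genes, against 294 without a filter, 87 with a mean of at least 50, 424 with a replicate block, 347 after the median-gene shift and 358 with TMM. For Med17 it was 3100 genes, against 979 with a mean of at least 50, 1346 after the shift and 1455 with TMM. The letters were not used as pairs because the labels do not say that they mark a shared culture or day. Same-letter Med6 libraries had deviation correlations of 0.22 (A), 0.38 (B) and 0.07 (C), and unlike letters −0.35 to 0.17. Med6_delH1 C correlated better with Med6_WT A (0.17) than with Med6_WT C. Whether the letters share an effect was not tested. With a replicate block 4549 genes changed on the deposited scale and 1125 relative to the median gene.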

Other observations

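Other genes among the 46 that were lower than the median gene by over 2-fold, chosen after their values were seen, encode oxidoreductases. AAD4, an aryl-alcohol dehydrogenase by similarity, changed by −1.39, GRE2, a methylglyoxal reductase, by −1.19, and ADH6, an NADPH-dependent alcohol dehydrogenase, by −1.01, all relative to the median gene. SRX1, a sulfiredoxin, changed by −1.22, a limma call lost without Med6_delH1 A, Med6_WT A or Med6_WT C (adjusted p = 0.0675 to 0.0797). With a robust limma prior the calls of SRX1 and GRE2 were lost (adjusted p = 0.154 and 0.0617), and with DESeq2 that of SRX1 (0.0721). GRE2 averaged 113 units of signal in Med6_delH1 and 544 units in Med6_WT.

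Genes of glycine and one-carbon metabolism were also among them. GCV1 and GCV2, subunits of the glycine cleavage system, changed by −1.29 and −1.22, and SHM2, the cytosolic serine hydroxymethyltransferase, by −1.05. GCV2 averaged 30.2 units in Med6_delH1 and 158 units in Med6_WT. GAL4, the activator of galactose genes, averaged 3.18 units in Med6_delH1 and 19.6 units in Med6_WT, a relative change of −1.18.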
